A study of Mus musculus with 137 samples.

Results

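Expression of 9 genes of the TGF-beta superfamily was followed in mouse bone marrow-derived macrophages that carried or lacked a change in Beclin1, before and during activation with LPS and IFN-gamma. The 9 genes are the ligand genes Inhba, Gdf3, Gdf15 and Tgfb1, the receptor genes Tgfbr1 and Tgfbr2, the signal transducer genes Smad3 and Smad7, and the TGF-beta-induced gene Tgfbi. They were chosen by name from the 34573 gene symbols of the count tables. All 9 were found in each table, and all 9 passed the filter on low counts in cohorts KO2 and KI. In cohort KO1 8 of 9 passed, and Gdf15 did not.

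The series holds 137 Smart-Seq2 libraries in 3 cohorts, each with macrophages at rest (0 h) or stimulated for 6 h or 24 h by LPS plus IFN-gamma, each added at 100 ng/ml. All cells were grown from marrow of mice of 7 weeks for 7 days in M-CSF at 20 ng/ml and re-plated before stimulation. In KO1 and KO2 the knockout (KO) was Beclin1flox/flox-LysM-Cre+ and its control (WT) was Beclin1flox/flox-LysM-Cre-, so that the controls carry the floxed alleles too and lack Cre. In KI the mutant was Beclin1F121A/F121A (F121A) and the control was littermate WT. LysM drives Cre in myeloid cells, whereas the F121A change is present in all cells of the mouse. KO1 has 3 numbered samples per genotype and time, called cultures here (33 to 35 for WT and 36 to 38 for KO), each the sum of 3 libraries, each KO2 group has 8 libraries except the WT group of 24 h with 7, and every KI group has 6. The labels do not say which libraries came from separate mice, so p values measure the spread between these libraries or cultures, which may be technical.

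Ligands of the TGF-beta superfamily are secreted dimers that bring together type I and type II receptor kinases on the cell surface. Tgfbr2 binds active TGF-beta and then phosphorylates the type I receptor Tgfbr1, which phosphorylates Smad2 and Smad3, and these enter the nucleus with Smad4. Smad7 is an inhibitory Smad that is itself induced by the pathway and closes a negative feedback loop. Inhba encodes the subunit of activin A, which signals through activin receptors to the same Smads and is released by activated macrophages. Gdf15 is a stress-induced ligand that acts through the receptor Gfral in the hindbrain, and Gdf3 is a ligand related to Nodal that is expressed in macrophages. Tgfbi encodes a secreted matrix protein that was named for its induction by TGF-beta. Beclin1 is a subunit of the lipid kinase complexes that start autophagy and shape endosomes, and the F121A change weakens its binding to the inhibitor Bcl2.

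The upstream sequences of Inhba, Gdf15 and Tgfbi are shown because the results below turn on these 3 genes, which were picked after their values were seen. They end at the base before the annotated start and were read from RefSeq promoter windows of GRCm38.p6 (250 bases before to 50 after a start), which held 7 of the 9 members, without Gdf3 and Smad7. Each runs 5′ to 3′ on the gene's strand, and capitals mark a match to a searched motif.
Inhba, chr13:16011601-16011850, plus strand: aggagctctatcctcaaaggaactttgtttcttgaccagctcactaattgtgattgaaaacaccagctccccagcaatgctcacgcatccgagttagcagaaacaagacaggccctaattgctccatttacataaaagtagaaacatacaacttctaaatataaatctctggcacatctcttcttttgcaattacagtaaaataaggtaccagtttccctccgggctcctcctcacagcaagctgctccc
Gdf15, chr8:70632457-70632706, minus strand: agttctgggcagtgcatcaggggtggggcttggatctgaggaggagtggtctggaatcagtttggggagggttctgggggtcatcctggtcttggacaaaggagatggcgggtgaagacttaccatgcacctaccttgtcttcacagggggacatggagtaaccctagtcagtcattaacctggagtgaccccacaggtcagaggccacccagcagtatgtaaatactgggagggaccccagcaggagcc
Tgfbi, chr13:56609336-56609522, plus strand: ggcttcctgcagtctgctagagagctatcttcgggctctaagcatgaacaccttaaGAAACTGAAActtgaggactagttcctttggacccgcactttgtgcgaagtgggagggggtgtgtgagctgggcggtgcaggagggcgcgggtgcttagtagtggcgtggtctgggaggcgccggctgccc

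The motifs were searched on both strands in the 250 bases before each start: AP-1 (TGANTCA), CRE (TGACGTCA), C/EBP-ATF (TGATGNAA), NF-kB (by its name), E-box (CACGTG), Smad palindrome (GTCTAGAC), GAS (TTCNNNGAA) and ISRE (by its name). The Tgfbi sequence held 1 match, the ISRE-like GAAACTGAAA, and an ISRE match stood in 2.98% of 32851 promoters. The printed Inhba and Gdf15 sequences held no match to any of the 8 motifs. Over all promoters AP-1 stood in 6.75%, CRE in 1.55%, C/EBP-ATF in 3.45%, NF-kB in 7.25%, E-box in 6.02%, the Smad palindrome in 0.167% and GAS in 7.02%. Of the other windows of members, Tgfb1 held 1 NF-kB match and an alternative Gdf15 start held 1 E-box. The GC content of the whole window before the start was 43.2% for Inhba, 56.4% for Gdf15 and 62.4% for Tgfbi, against a median of 52.4% over all promoters. A match describes letters in these windows, not a site in use.

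In GENCODE vM21 (GRCm38, the assembly also called mm10), Inhba lies on chromosome 13 from 16011851 to 16031621 on the plus strand and Tgfbi on the same chromosome from 56609523 to 56639562 on the plus strand. Gdf3 lies on chromosome 6 from 122605403 to 122610087 (minus), Gdf15 on chromosome 8 from 70629393 to 70632456 (minus), and Tgfb1 on chromosome 7 from 25687002 to 25705077 (plus). Tgfbr1 lies on chromosome 4 from 47353222 to 47414931 (plus), Tgfbr2 on chromosome 9 from 116084293 to 116175360 (minus), Smad3 on chromosome 9 from 63646767 to 63757994 (minus) and Smad7 on chromosome 18 from 75367529 to 75395935 (plus). No exon base of these 9 genes is shared with another annotated gene, so that reads counted without strand are not split between neighbours by this annotation.

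Counts in genes per library ran from 1898574 to 6579185 (KO1), from 1448218 to 15627379 (KO2) and from 3574158 to 11786453 (KI). Levels below are read counts scaled to library size (CPM) with TMM factors within a cohort (scaled CPM), so levels of different cohorts stand on separately normalized scales. The TMM factors moved with time: their group medians were 1.27 to 1.74 at 0 h, 0.679 to 0.841 at 6 h and 0.802 to 0.962 at 24 h. With total counts alone, the median of all genes in WT would shift by -1.11, -0.93 and -1.19 on the log2 scale from 0 h to 6 h and by -1.14, -0.47 and -0.84 from 0 h to 24 h (KO1, KO2, KI), by -0.00, 0.45 and 0.34 from 6 h to 24 h, and between genotypes of KO2 by 0.20 at 0 h and 0.24 at 6 h. The changes given are relative to that shift. Becn1, the targeted gene, was lower in KO at each time in KO1 (log2 fold change -1.51, -1.52 and -1.41, adjusted p = 0.0045, 0.0078 and 0.017) and in KO2 (-3.28, -3.31 and -2.63), and its expression in F121A did not pass the test (-0.08, 0.05 and -0.04, adjusted p = 0.85, 0.8 and 0.88). Adjusted p values here and below come from edgeR's quasi-likelihood test with Benjamini-Hochberg adjustment over the genes of the fit, and those under 0.05 count as called.

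In KO2 the X-inactivation transcript Xist was at medians of 128 to 175 scaled CPM in the WT groups and 0.24 to 0.57 in the KO groups, and the Y-linked gene Ddx3y was at medians of 12.3 to 15.5 in KO and at most 0.0983 in WT. In KO2, therefore, sex and genotype cannot be told apart. Xist was present in both genotypes of KI and Ddx3y in both genotypes of KO1. All 10 macrophage markers (Adgre1, Csf1r, Lyz2 and others) were detected in every group. Their summed level in KO2 was 28710 to 50080 scaled CPM in the WT libraries and 14560 to 24010 in the KO libraries, without overlap. Lyz2 was the highest marker and a large part of this sum. Its KO2 medians were 33320, 19060 and 15900 in WT and 11660, 5882 and 6811 in KO (0 h, 6 h and 24 h). The sum therefore leans on 1 gene, and the part of this and of the other marker lists in the KO2 genotype results was not tested. Lyz2 is also the gene of LysM, which drives Cre in KO and not in WT. No macrophage content is therefore read from Lyz2 or from this sum, and the sum without Lyz2 was not computed. For the other markers, fewer cells of a type and less RNA per cell cannot be told apart in bulk libraries. Among the markers of other cells, fibroblast and stroma markers had summed medians of 1.26 to 26 over the 18 groups, and the highest was Pf4 of the megakaryocyte and platelet list, whose summed level in KO1 was 416 to 1951 at 0 h in WT.

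The 6 WT libraries of KI at 24 h fell into sets of 3. Over 5580 genes, libraries 1, 3 and 5 correlated with each other, and 2, 4 and 6 with each other, at r = 0.982 to 0.991, but between the sets at 0.971 to 0.98. In the F121A libraries at 24 h the same numbering gave 0.98 to 0.991 within and 0.981 to 0.989 between. Dendritic cell markers summed to 83.9 to 107 scaled CPM in libraries 1, 3 and 5 and 155 to 215 in 2, 4 and 6, and neutrophil markers to 51 to 64.3 and 34 to 34.8. Over all 6 libraries the highest marker was Ccr7 (median 116.6) in the first list and Csf3r (median 32.8) in the second. The labels give no reason for the sets. KI results at 24 h are therefore also given without libraries 1, 3 and 5 and without 2, 4 and 6, either beside the result or together after the account of Tgfbi. The labels of 2 samples name different times in different fields, and they were placed by title.

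**Figure D1:**
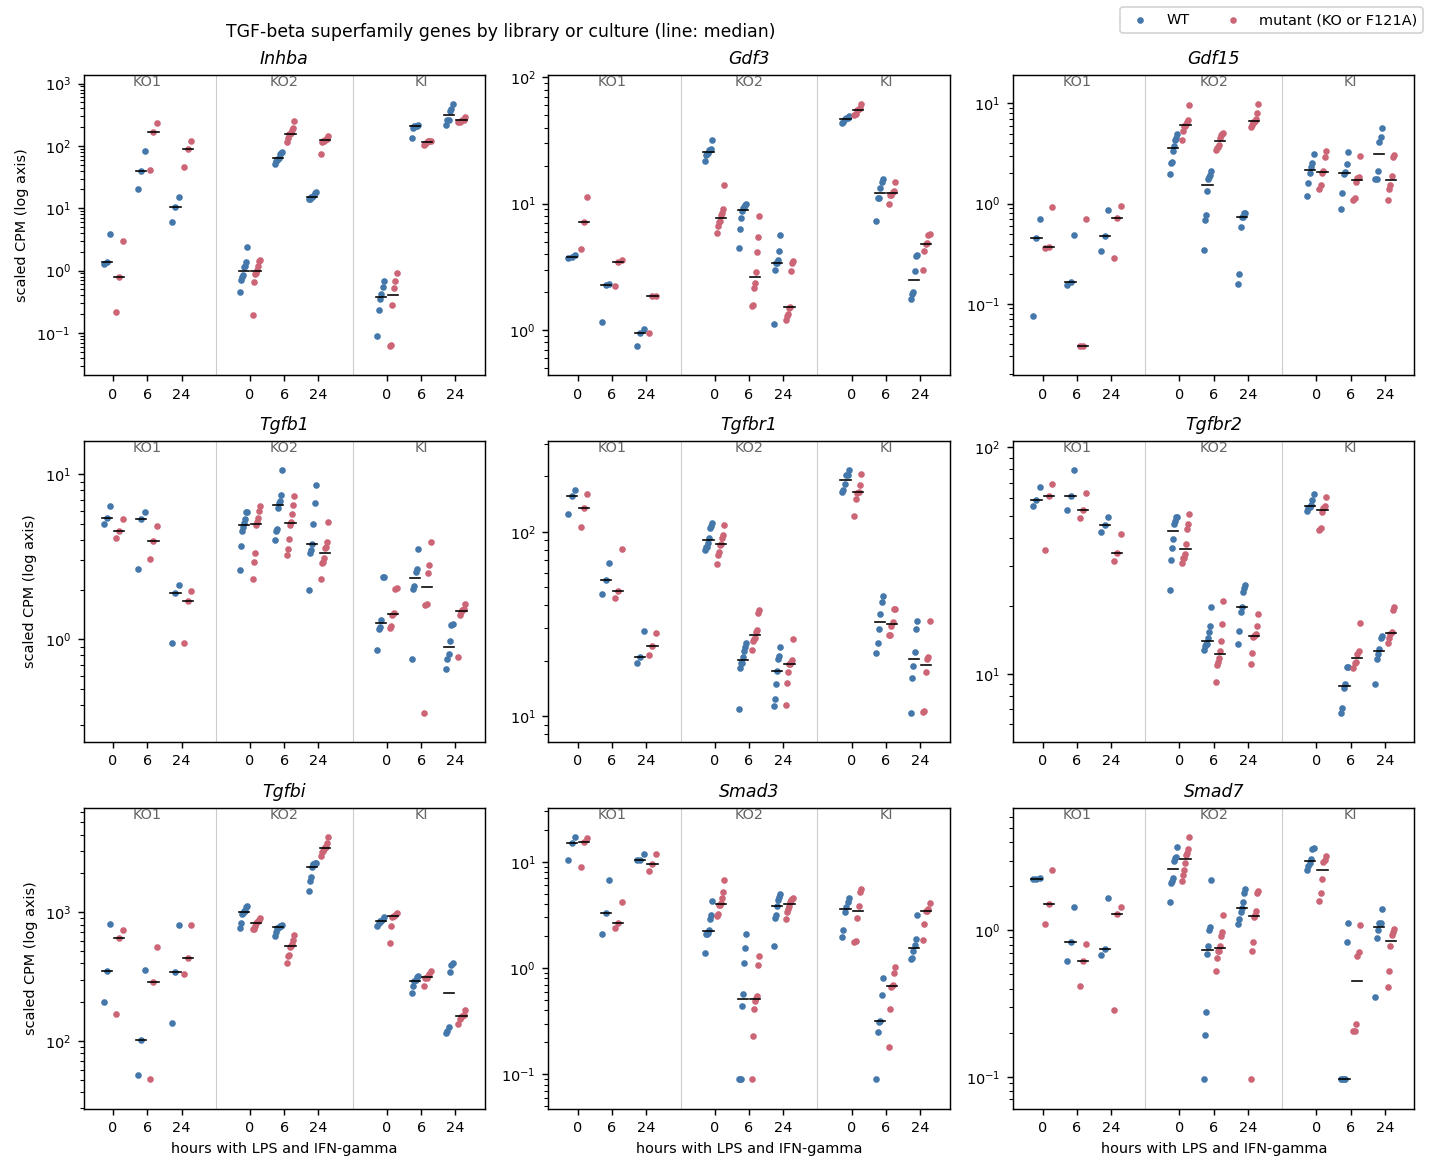
Scaled CPM (log axis) of the 9 genes by hours of stimulation in the cohorts KO1, KO2 and KI. Each point is a library, or in KO1 a culture, with WT in blue and mutant in red, the line is the group median, and values of 0 are drawn below the lowest value above 0. Inhba rose from medians of 1.35 or less at 0 h in every WT group, and at 24 h all KO points of KO1 and KO2 lie above their WT points.

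In WT macrophages most members tested were called at 6 h against 0 h, more of them lower than higher, where most of all genes tested were called too. At 6 h against 0 h, Inhba was the single member that rose in each cohort. In KO1 1 member rose and 4 of 8 fell, where 25.7% of all genes tested rose and 31.1% fell. In KO2 1 rose and 7 of 9 fell, against 32.5% and 38.3% of all genes. In KI 1 rose and 6 of 9 fell, against 36.7% and 36.8%. The median log2 change of the members was -1.10, -1.43 and -1.96 in KO1, KO2 and KI, where the median of all genes was -0.09, -0.11 and 0.00.

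At 24 h against 0 h in WT, 1 member rose and 3 of 8 fell in KO1 (21.3% and 20.6% of all genes), 2 rose and 5 of 9 fell in KO2 (29.6% and 29.7%), and 2 rose and 7 of 9 fell in KI (33.9% and 29.9%). From 6 h to 24 h 1 member rose and 4 of 8 fell in KO1 (28.7% and 25.9% of all genes). The counts were 4 and 3 of 9 in KO2 (31% and 28%) and 5 and 3 of 9 in KI (33.6% and 31.8%). Inhba, Smad3 and Gdf3 show the range of time courses: Inhba was above rest at 6 h and 24 h, Smad3 was low at 6 h and back up at 24 h, and the Gdf3 medians were lower at each later time.

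**Figure D2:**
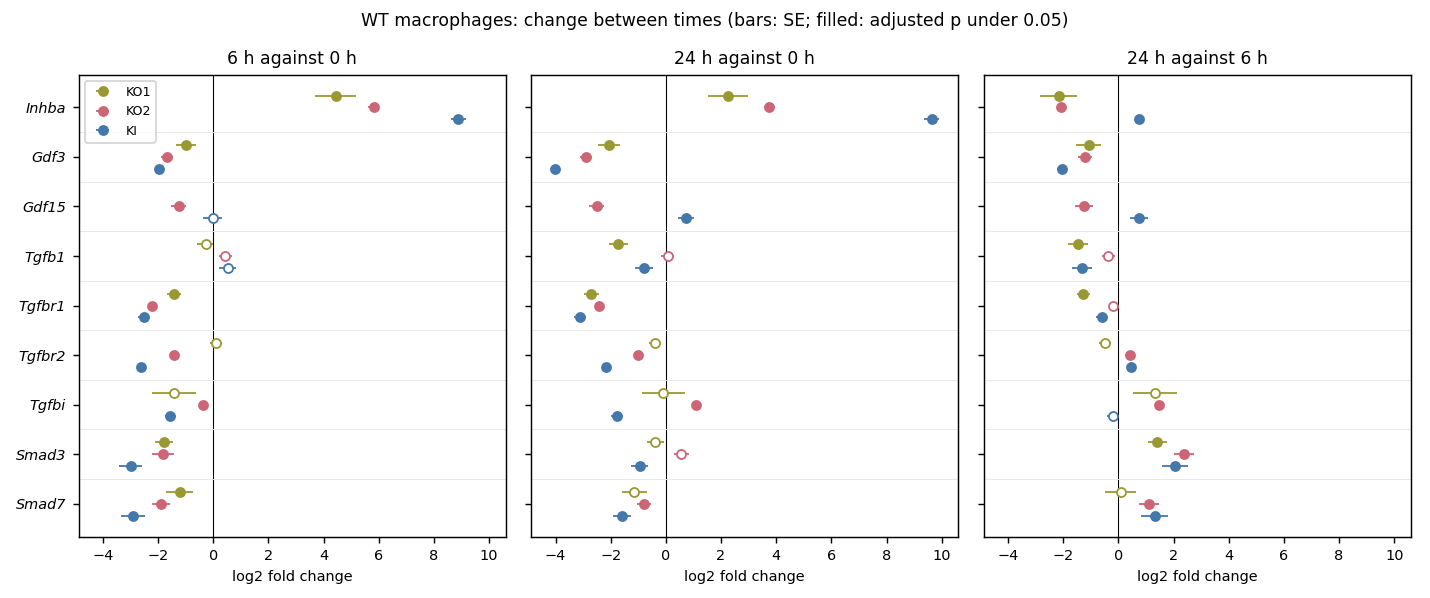
Log2 fold change (x axis) in WT macrophages of the 9 genes at 6 h against 0 h, 24 h against 0 h and 24 h against 6 h in the 3 cohorts, with the standard error as a bar and filled points for an adjusted p under 0.05. Inhba is the member far above 0 at 6 h and 24 h against 0 h, and Tgfbr1 and Gdf3 lie below 0 in all 3 cohorts at both.

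Inhba, the activin A subunit gene, was close to silent at rest and rose strongly on activation. In the WT cultures of KO1 it stood at 3.93, 1.35 and 1.30 scaled CPM at 0 h (cultures 33, 34 and 35), at 20.2, 39.9 and 82.8 at 6 h and at 10.6, 6.03 and 15.1 at 24 h. In KO2 WT libraries it was 0.447 to 2.37 (median 0.998) at 0 h, 50.7 to 79.1 (median 63.1) at 6 h and 13.9 to 18.4 (median 15.3) at 24 h. The 3 times did not overlap in KO2, with the peak at 6 h. In KI WT libraries Inhba was 0.0885 to 0.675 (median 0.381) at 0 h, 133 to 219 (median 207) at 6 h and 214 to 477 (median 315) at 24 h. The KI libraries had their highest level at 24 h and not at 6 h.

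The change from 0 h to 6 h was a log2 fold change of 4.43 ± 0.75 (SE) in KO1, 5.81 ± 0.20 in KO2 and 8.88 ± 0.27 in KI (adjusted p = 5.5e-05, 5e-34 and 2.5e-29). From 6 h to 24 h Inhba fell by 2.17 ± 0.67 in KO1 and by 2.07 ± 0.15 in KO2 (adjusted p = 0.01 and 1.5e-18, in KO1 0.061 without culture 34 or 35), but rose by 0.76 ± 0.16 in KI (adjusted p = 8.5e-05). The KI rise was 1.08 without WT libraries 1, 3 and 5 of 24 h, and 0.35 without 2, 4 and 6, where it no longer passed the test (adjusted p = 0.065). At 24 h Inhba remained above rest by 2.26 in KO1 (adjusted p = 0.016), 3.75 in KO2 and 9.63 in KI, and the KO1 call was lost without culture 34 (adjusted p = 0.063), without culture 35 (0.13) and with total counts (0.1).

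Loss of Beclin1 went with more Inhba in activated macrophages of KO2. The KO libraries stood at 117 to 253 scaled CPM (median 156) at 6 h and 72.9 to 145 (median 123) at 24 h. Every KO library lay above every WT library at both times, while at 0 h the KO range of 0.193 to 1.48 (median 0.976) overlapped that of WT. The log2 fold change was -0.23 ± 0.31 at 0 h (adjusted p = 0.76), 1.36 ± 0.13 at 6 h (2.56-fold, adjusted p = 4.8e-12) and 2.95 ± 0.15 at 24 h (7.71-fold, adjusted p = 1.2e-23). The genotype effect itself grew with time, by 1.59 ± 0.34 from 0 h to 6 h (adjusted p = 0.0019) and by 3.18 ± 0.36 from 0 h to 24 h (adjusted p = 1.2e-09). At 6 h dendritic cell markers summed to 44.3 to 74.9 scaled CPM in KO and 32.7 to 43.1 in WT, with Ccr7 the highest of them, and megakaryocyte and platelet markers, nearly all Pf4, to 43.6 to 61.6 and 99 to 158. At 24 h monocyte markers summed to 35.2 to 44.9 scaled CPM in KO and 16.6 to 25.6 in WT, with Vcan the highest (medians 17.55 and 9.002). Neutrophil markers summed to 77.4 to 116 and 60.6 to 68.9, mostly Csf3r (medians 76.8 and 48.2), with 8 of 10 markers at medians under 1 in both genotypes. The part of these lists in the differences was not tested. In KO libraries the 24 h level of Inhba was still 6.92 ± 0.20 above rest on the log2 scale, against 3.75 ± 0.21 in WT.

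In KO1 the KO cultures 36, 37 and 38 had 0.218, 3.03 and 0.798 scaled CPM of Inhba at 0 h, 230.3, 41.6 and 170.0 at 6 h and 120.9, 45.7 and 90.5 at 24 h. All 3 KO cultures were above all 3 WT cultures at 24 h, where KO culture 37 was the lowest of them. At 24 h the log2 fold change was 3.02 ± 0.68 (8.10-fold, n = 3 against 3) with an unadjusted edgeR p of 0.00027, and it did not pass adjustment over all genes (adjusted p = 0.4). It passed without culture 37 (3.32, adjusted p = 0.0091) and with only the 2 groups compared in the fit (adjusted p = 0.014). It also passed with no filter on low counts (4.5e-24), where the SE was 0.28 and 86 genes were called against 1 in the main fit. With single libraries as units it passed too (6.9e-07), but the 3 libraries of a culture are repeats and not independent. It did not pass with any other culture left out, with DESeq2 size factors, with total counts or without the samples of conflicting labels. At 6 h the value was 1.63 ± 0.63 and the groups overlapped (edgeR adjusted p = 1). The difference between the KO2 and KO1 genotype effects was -0.24 ± 0.40 at 6 h and -0.08 ± 0.42 at 24 h (with adjusted p = 0.93 and 1), which does not show that they are alike. In KO1 at 24 h dendritic cell markers summed to 67.76 to 75.96 scaled CPM in KO and 89.72 to 125.2 in WT. Fibroblast and stroma markers summed to 4.243 to 6.175 and 6.523 to 23.17, with 9 of 10 markers at medians under 1 in KO and 6 in WT. The macrophage markers summed to 13090 to 20140 scaled CPM in KO and 24240 to 31220 in WT. Lyz2, the LysM gene that drives Cre in KO only, was the highest of them in both (medians 4453 and 10260). No macrophage content is read from this sum, and the part of these lists in the Inhba values was not tested.

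In KI the F121A macrophages went the other way at 6 h. Inhba was at 103 to 122 scaled CPM in the F121A libraries and at 133 to 219 in WT, without overlap. The log2 fold change was -0.76 ± 0.16 (1.70-fold lower, adjusted p = 0.0011). Monocyte markers at 6 h summed to 250.6 to 331 scaled CPM in F121A and 192 to 237 in WT, with Vcan the highest (medians 204.5 and 149.4). Neutrophil markers summed to 95.7 to 122 and 67.0 to 80.6, mostly Csf3r (medians 88.5 and 52.4). The part of both lists in the 6 h difference was not tested. At 24 h the log2 fold change was -0.35 ± 0.16 (adjusted p = 0.22), with F121A libraries at 238 to 295 and WT libraries at 264, 262 and 214 (1, 3 and 5) or 477, 388 and 365 (2, 4 and 6). Without libraries 1, 3 and 5 the value was -0.66 ± 0.17 (adjusted p = 0.023), and without 2, 4 and 6 it was 0.07 ± 0.17 (adjusted p = 0.89). The KO2 effect exceeded the KI effect by 2.16 ± 0.32 at 6 h and 3.27 ± 0.33 at 24 h (with adjusted p = 2.4e-07 and 4.2e-13).

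**Figure D3:**
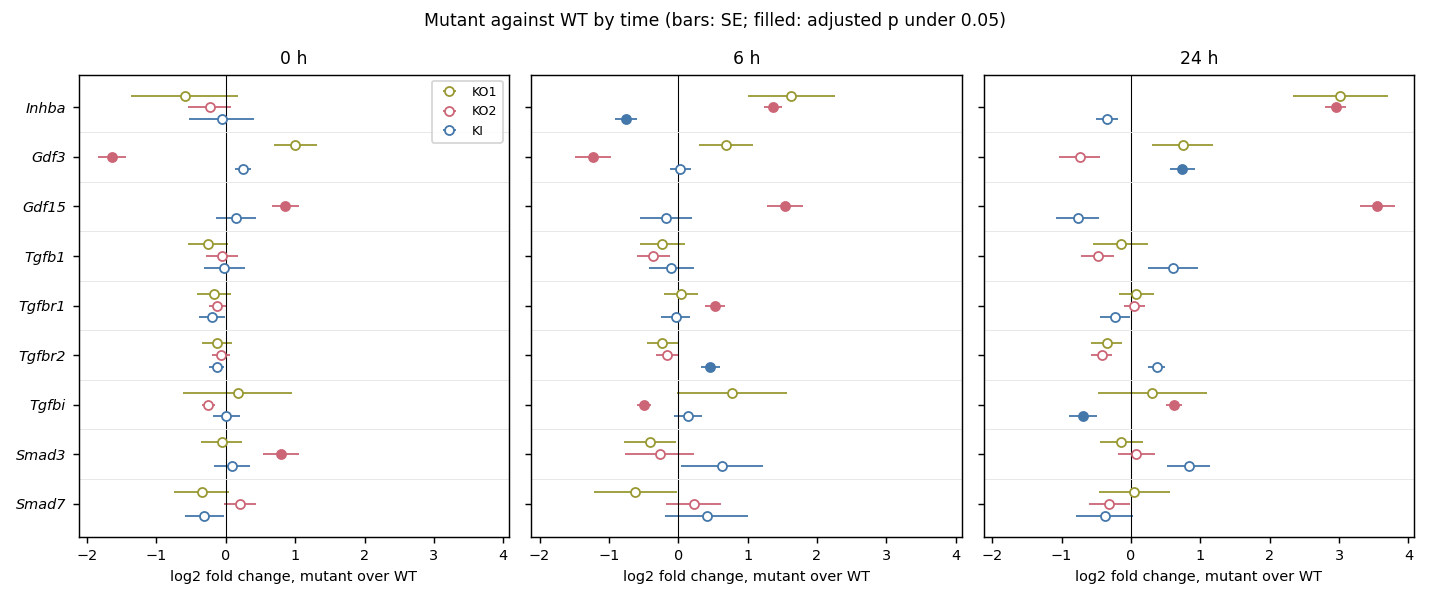
Log2 fold change of mutant over WT for the 9 genes at 0 h, 6 h and 24 h in KO1, KO2 and KI, with the standard error as a bar and filled points for an adjusted p under 0.05. Inhba and Gdf15 of KO2 rise from 0 h to 24 h up to 2.95 and 3.55, and the KI points stay between -0.77 and 0.83.

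Over the members, KO2 had the most genotype calls. At 0 h 2 of 9 were higher and 1 lower in KO, where 3.84% and 4.45% of all genes were. At 6 h 3 were higher and 2 lower (7.62% and 7.75% of all genes), and at 24 h 3 were higher and 0 lower (6.26% and 5.06%). In KI none of the 9 was called at 0 h by edgeR or DESeq2, with 1 at an unadjusted p under 0.05 (2.37% of all genes called higher and 0.574% lower). At 6 h 1 was higher and 1 lower in KI (8.01% and 3.49%), and at 24 h 1 was higher and 1 lower (3.42% and 3.78%).

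In KO1 none of the 8 members tested was called between genotypes at 0 h, 6 h or 24 h by edgeR or DESeq2, and 1 had an unadjusted edgeR p under 0.05 at each time (Gdf3 at 0 h, Inhba at 6 h and 24 h). Over the 3 cohorts, DESeq2's own filters left some genotype and genotype by time values of members without an adjusted p. DESeq2 could not call these, and in KO1 at 0 h it gave an adjusted p for 6450 genes. The background was as low, with 0.0219%, 0.0219% and 0.0073% of 13693 genes called at 0 h, 6 h and 24 h. Changes of the genotype effect with time were called for no member of KO1 by either tool (0% of all genes from 0 h to 6 h and 0% to 24 h), with Inhba at an unadjusted edgeR p under 0.05 at both times. In KO2 they were called for 2 of 9 members at 6 h (4.07% of all genes) and 3 at 24 h (5.91%). In KI it was 1 member at 6 h (3.3%) and none at 24 h (4.26%), where 4 had an unadjusted edgeR p under 0.05 and DESeq2 called 1.

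The KO2 and KI genotype effects differed for 1 member at 0 h (2.15% of all genes), 3 at 6 h (8.97%) and 5 at 24 h (4.82%). The KO2 and KO1 effects differed for 1 member at 0 h (0.703%), and 1 at 6 h (0.681%), Gdf3 both times. At 24 h 0.299% of all genes differed, among them Gdf15, from which nothing is read because it did not pass the filter of KO1. KO2 and KI differ in cohort and in allele. KO2 and KO1 differ in cohort and in how much lower Becn1 was in KO (log2 fold change -3.28 and -1.51 at 0 h). The KO2 effect also holds the sex difference, so these cannot be told apart.

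Gdf3, the Nodal-related ligand, fell with activation in all cohorts. In KO1 WT cultures 33, 34 and 35 it was 3.93, 3.71 and 3.81 scaled CPM at 0 h, 2.32, 2.26 and 1.16 at 6 h and 1.01, 0.947 and 0.749 at 24 h. The medians in WT were 25.7, 8.95 and 3.40 in KO2 and 47.1, 12.2 and 2.47 in KI at the 3 times. The fall from 0 h to 24 h was -2.07 ± 0.39, -2.90 ± 0.23 and -4.02 ± 0.16 on the log2 scale (adjusted p = 0.00031, 4.5e-17 and 2.9e-25), and already at 6 h it was called in all 3 (-0.99, -1.69 and -1.96, adjusted p = 0.029 in KO1, where it was 0.067 to 0.17 without culture 33, 34 or 35). The step from 6 h to 24 h was -1.08 ± 0.45, -1.21 and -2.06. In KO1 its adjusted p of 0.048 rose above 0.05 without culture 33 (0.2), 34 (0.19), 35 (0.083) or 38 (0.067), with DESeq2 (0.064), without the samples of conflicting labels (0.051), with no filter (0.11) and with total counts (0.091).

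In KO2 Gdf3 was lower in the knockout before any stimulus. The KO libraries held 5.90 to 14 scaled CPM (median 7.71) at 0 h, and WT 21.9 to 31.9, without overlap. At 0 h monocyte markers summed to 10.6 to 18.7 scaled CPM in KO and 5.31 to 10 in WT, with Ccr2 the highest (medians 8.62 and 3.9). Megakaryocyte and platelet markers, nearly all Pf4, summed to 66.1 to 85.1 and 120.7 to 187. The part of both lists in the Gdf3 difference was not tested. At 6 h KO was at 1.56 to 7.98 (median 2.62) and WT at 4.42 to 10.0 (median 8.95), and at 24 h KO was at 1.21 to 3.50 (median 1.52) and WT at 1.11 to 5.65. On the log2 scale the fold change was -1.64 ± 0.20 at 0 h (3.12-fold lower, adjusted p = 4.8e-09), -1.23 ± 0.26 at 6 h (adjusted p = 0.00035) and -0.74 ± 0.29 at 24 h (adjusted p = 0.093, or 0.019 with -1.03 without replicate 8). The difference shrank in size with time, but the change of the effect was not called (0.41 ± 0.33 and 0.90 ± 0.36, adjusted p = 0.59 and 0.14).

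In KO1 the direction was opposite. KO cultures 36, 37 and 38 had 4.36, 11.2 and 7.12 scaled CPM of Gdf3 at 0 h, all above the WT cultures. The log2 fold change of 1 ± 0.31 had an unadjusted edgeR p of 0.0045 and an adjusted p of 0.45, or 0.0047 with single libraries as units, which counts the repeats of a culture as independent. The KO2 and KO1 effects differed by -2.64 ± 0.33 at 0 h and -1.91 ± 0.46 at 6 h (with adjusted p = 5.9e-09 and 0.016), the latter not with total counts (-1.59, adjusted p = 0.11). Neutrophil markers in KO1 at 0 h summed to 239 to 670 scaled CPM in KO and 145 to 167 in WT. The highest of them was Ltf in KO (median 66.75) and Csf3r in WT (median 33.9). Fibroblast and stroma markers summed to 6.03 to 9.83 in KO and 10.06 to 30 in WT, and the part of both lists in the Gdf3 difference was not tested.

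In KI the F121A libraries were at 49.9 to 61.9 scaled CPM of Gdf3 at 0 h, just above the 43.7 to 49.7 of WT, a difference that did not pass the test (0.25 ± 0.12, adjusted p = 0.4). At 0 h macrophage markers summed to 53190 to 66400 scaled CPM in F121A and 66890 to 75500 in WT, without overlap. Megakaryocyte and platelet markers, mostly Pf4, summed to 16.4 to 25.8 and 11.5 to 14.2, and the part of both lists in the Gdf3 values was not tested. At 24 h Gdf3 in F121A was at 3 to 5.75 (median 4.80), and in WT at 2.93, 3.89 and 3.85 (libraries 1, 3 and 5) or 1.92, 2.01 and 1.76 (2, 4 and 6). Over all libraries the log2 fold change was 0.74 ± 0.18 (adjusted p = 0.0078). It was 1.32 ± 0.23 (adjusted p = 0.00046) without libraries 1, 3 and 5 and 0.40 ± 0.19 (adjusted p = 0.19) without 2, 4 and 6. The call was also lost with only the 2 groups in the fit (adjusted p = 0.063) and without replicate 4 (0.068) or 6 (0.052). The KO2 effect was below the KI effect at all times, by -1.90 ± 0.25, -1.22 ± 0.31 and -1.51 ± 0.36 (adjusted p = 9e-09, 0.0041 and 0.0031).

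Gdf15, the stress-induced ligand, had its highest genotype difference in KO2. WT libraries of KO2 held 1.98 to 4.92 scaled CPM (median 3.56) at 0 h, 0.347 to 2.11 (median 1.54) at 6 h and 0.157 to 0.807 (median 0.730) at 24 h. KO libraries held 4.26 to 9.63 (median 6.11), 3.40 to 5.01 (median 4.18) and 5.75 to 9.94 (median 6.65). At 6 h and 24 h every KO library was above every WT library, and at 0 h the groups overlapped.

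The log2 fold change of Gdf15 in KO2 was 0.86 ± 0.19 at 0 h, 1.54 ± 0.26 at 6 h and 3.55 ± 0.25 at 24 h (11.7-fold, adjusted p = 0.0014, 9.1e-06 and 5.3e-17). In WT the gene fell by 1.26 ± 0.26 to 6 h and by 2.50 ± 0.27 to 24 h (adjusted p = 2.2e-05 and 3.7e-12). In KO the change to 24 h was 0.19 ± 0.18 (adjusted p = 0.37), after a fall of 0.58 ± 0.19 at 6 h (adjusted p = 0.006). The genotype effect at 24 h exceeded that at 0 h by 2.69 ± 0.32 (adjusted p = 9.9e-09).

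In KI Gdf15 was at 1.19 to 3.10 scaled CPM in WT and 1.41 to 3.31 in F121A at 0 h, and at 0.887 to 3.27 and 1.09 to 3 at 6 h. At 24 h F121A had 1.09 to 3.08, WT libraries 1, 3 and 5 had 5.72, 4.602 and 4.13, and WT libraries 2, 4 and 6 had 2.09, 1.76 and 1.76. The first set lies above all F121A libraries and the second inside their range. Over all libraries the log2 fold change at 24 h was -0.77 ± 0.31 (adjusted p = 0.14), 0.11 ± 0.38 without libraries 1, 3 and 5 (adjusted p = 0.96) and -1.24 ± 0.31 without 2, 4 and 6 (adjusted p = 0.0047).

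The WT rise of Gdf15 in KI from 0 h to 24 h, 0.74 ± 0.29 (adjusted p = 0.026), likewise rested on libraries 1, 3 and 5. It was -0.13 without them (adjusted p = 0.79), 1.23 without the other set (adjusted p = 0.00059) and -0.14 with total counts. The KO2 effect exceeded the KI effect by 1.77 ± 0.48 at 6 h and 4.30 ± 0.43 at 24 h (with adjusted p = 0.0073 and 3.3e-13). Without each set the 24 h difference was 3.43 and 4.78.

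In KO1 Gdf15 was near the limit of detection, at 0 to 0.944 scaled CPM with 5 to 32 counts per group, and was not tested in the cohort's own fit. No read was found in 2 of 3 KO cultures at 6 h, and no KO1 genotype difference of Gdf15 can be given at this depth.

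Tgfb1, the gene of TGF-beta 1 itself, was low in all libraries, at 0.359 to 10.5 scaled CPM, and showed no genotype call in any cohort or time. Its genotype log2 fold changes lay between -0.48 and 0.61, and the smallest adjusted p was 0.22 (KO2 at 24 h, -0.48 ± 0.24). In KO1 WT cultures it was 4.96, 6.41 and 5.42 at 0 h and 1.91, 0.947 and 2.14 at 24 h, without overlap. The fall from 0 h to 24 h was -1.73 ± 0.34 in KO1 (adjusted p = 0.00038) and -0.79 ± 0.34 in KI (adjusted p = 0.039, a call that was lost without WT libraries 1, 3 and 5 of 24 h, at 0.27, and without 2, 4 and 6, at 0.058). In KO2 the value was 0.06 ± 0.23 (adjusted p = 0.85), with WT libraries at 2.63 to 5.90 at rest and 2 to 8.65 at 24 h. No cohort passed the test at 6 h (-0.27, 0.43 and 0.53).

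Tgfbr1, the type I receptor kinase, fell in every cohort on activation. In KO1 WT cultures 33, 34 and 35 it went from 125, 157 and 169.6 scaled CPM at 0 h to 54.5, 67.5 and 46.05 at 6 h and 19.3, 29.1 and 21.1 at 24 h. WT libraries of KO2 went from 79.5 to 111 (median 89.9) to 11 to 24.9 (median 20.2) and 11.4 to 23.8 (median 17.6), and those of KI from 165 to 216 (median 192) to 22.1 to 44.8 (median 32.6) and 10.4 to 32.9 (median 20.5). Resting and stimulated WT samples did not overlap in any cohort. The log2 change to 6 h was -1.42 ± 0.25, -2.21 ± 0.14 and -2.51 ± 0.21, and to 24 h -2.70 ± 0.26, -2.41 ± 0.14 and -3.11 ± 0.21 (KO1, KO2 and KI, adjusted p = 8.6e-05 or less). The further step from 6 h to 24 h was called in KO1 (-1.27) and KI (-0.60 ± 0.21, adjusted p = 0.012, or -0.22 without WT libraries 2, 4 and 6 of 24 h) but not in KO2 (-0.21 ± 0.15, adjusted p = 0.23).

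Between genotypes, Tgfbr1 was higher in KO of KO2 at 6 h, at 22.8 to 37.6 scaled CPM (median 27.6) against 11 to 24.9 in WT. The ranges overlapped, and the log2 fold change was 0.53 ± 0.14 (1.45-fold, adjusted p = 0.0056). At 0 h and at 24 h the values were -0.12 ± 0.12 and 0.05 ± 0.15 (adjusted p = 0.67 and 0.88). The effect at 6 h exceeded that at 0 h by 0.65 ± 0.19 (adjusted p = 0.031), a call that was lost without replicate 4, 6, 8 or 9 (adjusted p = 0.058, 0.14, 0.076 and 0.066) and with total counts (0.071). In KO1 and KI the genotype values lay between -0.23 and 0.08, with adjusted p of 0.64 or more.

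Tgfbr2, the type II receptor that binds TGF-beta, behaved differently in the cohorts. In KO1 WT cultures it was 66.8, 55.0 and 58.4 scaled CPM at 0 h, 79.2, 61.2 and 53.2 at 6 h and 45.5, 49.5 and 42.2 at 24 h. KO2 WT libraries had 23.5 to 49.5 (median 42.8), 12.7 to 19.7 (median 14) and 13.6 to 24.8 (median 19.7), and KI WT libraries 52.7 to 62.2 (median 55.1), 6.75 to 10.8 (median 8.86) and 8.99 to 14.7 (median 12.6). KO2 and KI lost most of the transcript within 6 h, and the KO1 times overlapped at 6 h. The log2 change to 6 h was 0.10 ± 0.22 in KO1 (adjusted p = 0.7), -1.43 ± 0.15 in KO2 and -2.64 ± 0.13 in KI (adjusted p = 1.3e-12 and 3.2e-22). With total counts the KO1 value was -0.89 (adjusted p = 0.0044). From 6 h to 24 h Tgfbr2 recovered in part in KO2 (0.41 ± 0.16, adjusted p = 0.023, or 0.073 without replicate 2) and KI (0.47 ± 0.13, adjusted p = 0.0023).

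F121A macrophages held more Tgfbr2 than WT at 6 h, at 10.6 to 16.8 scaled CPM (median 11.8) against 6.75 to 10.8. Here the log2 fold change was 0.46 ± 0.14 (1.38-fold, adjusted p = 0.022). The call was lost without replicate 2 (adjusted p = 0.061), 3 (0.051) or 5 (0.13), with libraries summed by number (0.055), with no filter (0.13), with only the 2 groups in the fit (0.072) and with total counts (0.12). At 24 h the value was 0.37 ± 0.12 (adjusted p = 0.054), and at 0 h -0.13 ± 0.11 (adjusted p = 0.75). The effect at 6 h exceeded that at 0 h by 0.59 ± 0.17 (adjusted p = 0.049), which no longer passed with any 1 replicate number left out.

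In KO2 the direction at 24 h was opposite but not called, with KO at 11.1 to 18.4 and WT at 13.6 to 24.8 scaled CPM of Tgfbr2 (-0.42 ± 0.15, adjusted p = 0.066, or 0.035 with only the 2 groups in the fit). The KO2 and KI effects on Tgfbr2 at 24 h differed by -0.82 ± 0.21 (adjusted p = 0.0087). In KO1 the value at 24 h was -0.35 ± 0.22 (adjusted p = 0.81), with KO cultures at 31.6, 34.3 and 41.4 against 45.5, 49.5 and 42.2 in WT, without overlap.

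Smad3, which carries the TGF-beta and activin signal to the nucleus, dipped at 6 h and came back by 24 h. In KO1 WT cultures 33, 34 and 35 it was 15.1, 10.4 and 17.01 scaled CPM at 0 h, 6.79, 2.10 and 3.31 at 6 h and 11.9, 10.4 and 10.4 at 24 h. In WT of KO2 and KI the level at 6 h was 0 to 2.08 and 0 to 0.801, with no read in 3 of 8 and 1 of 6 libraries. The dip was -1.79 ± 0.34, -1.83 ± 0.39 and -2.99 ± 0.42 (adjusted p = 0.0002, 4e-05 and 3e-08), and the rise from 6 h to 24 h was 1.41 ± 0.35, 2.38 ± 0.37 and 2.05 ± 0.47 (adjusted p = 0.0022, 2.2e-07 and 0.00019). At 24 h Smad3 was below rest in KI (-0.95 ± 0.30, adjusted p = 0.005, or 0.096 without WT libraries 1, 3 and 5 of 24 h), and its change did not pass the test in KO1 (-0.38) or KO2 (0.55).

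The Smad3 genotype difference was called once, in KO2 at 0 h, where KO libraries held 3.08 to 6.72 scaled CPM (median 4.01) and WT 1.38 to 4.25 (median 2.21). The log2 fold change of 0.79 ± 0.26 (adjusted p = 0.043) did not hold under 9 alternatives, among them leaving out replicate 1, 2, 4, 5, 6 or 7 (adjusted p of 0.068 to 0.19). In KI at 24 h the value was 0.83 ± 0.31 (adjusted p = 0.1).

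Smad7, the inhibitory Smad, was at 0 to 4.34 scaled CPM over all units and also fell at 6 h. The log2 change in WT was -1.22 ± 0.49 in KO1, -1.89 ± 0.33 in KO2 and -2.91 ± 0.42 in KI (adjusted p = 0.04, 1.3e-06 and 7.9e-08), and the KO1 call was lost without culture 33 (0.2), 35 (0.14) or 36 (0.061). In KI WT at 6 h 4 of 6 libraries had no Smad7 read and the others had 0.839 and 1.12, so that the depth of a library limits its value. At 24 h it stood below rest in KO2 (-0.80 ± 0.26, adjusted p = 0.0068) and KI (-1.60 ± 0.33, adjusted p = 4.5e-05), and in KO1 the value was -1.14 ± 0.46 (adjusted p = 0.051). No genotype difference of Smad7 was called, and the values lay between -0.62 and 0.41 with standard errors of 0.23 to 0.60.

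Tgfbi, the matrix protein gene, had the highest median per kilobase of the members in all groups and moved in different directions in the cohorts. WT libraries of KO2 had 756 to 1122 scaled CPM (median 1003) at 0 h, 658 to 790.1 (median 761) at 6 h and 1447 to 2419 (median 2223) at 24 h. WT libraries of KI had 782 to 911 (median 849) at 0 h and 235 to 317 (median 294) at 6 h, and at 24 h 385, 403 and 341 (1, 3 and 5) or 129, 119.9 and 115 (2, 4 and 6). In KO2 all 24 h libraries stood above all resting ones, and in KI all stood below.

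The change of Tgfbi to 24 h in WT was 1.09 ± 0.10 in KO2 (adjusted p = 1.1e-13) and -1.77 ± 0.21 in KI (adjusted p = 4.5e-10), or -2.81 without KI libraries 1, 3 and 5 and -1.17 without 2, 4 and 6. From 6 h to 24 h it was 1.47 ± 0.11 in KO2 (adjusted p = 2.4e-18) and -0.20 ± 0.20 in KI (adjusted p = 0.39). The KI value was -1.23 without libraries 1, 3 and 5 (adjusted p = 6.9e-11) and 0.40 without 2, 4 and 6 (adjusted p = 0.0037). At 6 h the gene was below rest in both cohorts (-0.38 ± 0.10 and -1.57 ± 0.20, adjusted p = 0.00076 and 5.7e-09).

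In KO1 the cultures differed more than the times. WT cultures 33, 34 and 35 held 199.7, 346 and 808 scaled CPM of Tgfbi at 0 h, 54.7, 101 and 356 at 6 h and 137, 340.5 and 795 at 24 h. Culture 35 was the highest and 33 the lowest each time, and among KO cultures 37 was the lowest each time (162, 50.3 and 333). In the main fit no Tgfbi change was called in KO1, where the standard error was 0.79 to 0.80 for each WT comparison of times. The value at 6 h, -1.41 against 0 h (adjusted p = 0.14), was called with the replicate number as a block (-1.61 ± 0.35, adjusted p = 0.00069), no filter (1.1e-05), single libraries (0.0073) and total counts (0.0056). That from 6 h to 24 h, 1.32 (adjusted p = 0.17), was called with the block (1.41 ± 0.35, adjusted p = 0.0023), no filter (6.3e-05) and single libraries (0.018).

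Between genotypes of KO2, Tgfbi changed sign with time. KO libraries held 736 to 904 scaled CPM (median 830.3) at 0 h, 405 to 663 (median 541) at 6 h and 2747 to 3817 (median 3153) at 24 h. At 24 h all 8 KO libraries were above all 7 WT libraries, while at 6 h 1 KO library reached above the lowest WT library. Here the log2 fold change was -0.25 ± 0.10 at 0 h (adjusted p = 0.12), -0.50 ± 0.10 at 6 h (adjusted p = 0.00027) and 0.62 ± 0.11 at 24 h (1.53-fold, adjusted p = 1.4e-05). The effect at 24 h exceeded that at 0 h by 0.87 ± 0.15 (adjusted p = 1.9e-05).

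In KI the F121A libraries held 136 to 172 scaled CPM of Tgfbi at 24 h. That is above WT libraries 2, 4 and 6 and below 1, 3 and 5. The log2 fold change was -0.69 ± 0.20 (adjusted p = 0.028) with all libraries, 0.35 ± 0.12 (adjusted p = 0.17) without 1, 3 and 5 and -1.28 ± 0.12 (adjusted p = 7.4e-11) without 2, 4 and 6, so that no direction is given for it. The call was also lost without replicate 1, 3 or 5 alone (adjusted p = 0.23, 0.25 and 0.1). In F121A itself the gene fell from 6 h to 24 h by 1.02 ± 0.20 (adjusted p = 2.6e-05). The genotype value at 0 h and 6 h was 0.01 ± 0.20 and 0.14 ± 0.20 (adjusted p = 1 and 0.73). The KO2 and KI effects at 24 h differed by 1.28 ± 0.39 (adjusted p = 0.032), by 0.24 without libraries 1, 3 and 5 (adjusted p = 0.89) and by 1.87 without 2, 4 and 6 (adjusted p = 0.00048).

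For the other KI values at 24 h, the first of each pair below is without WT libraries 1, 3 and 5 and the second without 2, 4 and 6. Members called against 0 h in WT numbered 6 and 8, and from 6 h to 24 h 7 and 7. Against 0 h the log2 change was 9.96 and 9.23 for Inhba, -4.59 and -3.68 for Gdf3, -3.64 and -2.73 for Tgfbr1, -2.20 and -2.13 for Tgfbr2 and -2 and -1.33 for Smad7, each called both times. From 6 h to 24 h it was -2.63 and -1.71 for Gdf3, 0.43 and 0.51 for Tgfbr2 and 2.23 and 1.88 for Smad3, likewise called. Smad3 against 0 h was called in the second case (-1.11, adjusted p = 0.0094), and Tgfbr1 from 6 h to 24 h in the first (-1.13, adjusted p = 0.00016). The genotype value was 0.42 and 0.34 for Tgfbr2 and 0.64 and 1 for Smad3, not called. The KO2 effect minus the KI effect was 3.59 and 2.85 for Inhba, -2.07 and -1.17 for Gdf3 and -0.85 and -0.78 for Tgfbr2, each called.

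Divided by exon length, the order of the members changed with activation. At 0 h in WT Tgfbi led with 91.8, 266 and 225 scaled CPM per kb (KO1, KO2 and KI, medians), Tgfbr1 was next with 24.0, 13.8 and 29.4, and Inhba was last of 9 with 0.211, 0.156 and 0.0596. At 6 h Inhba stood at 6.25, 9.88 and 32.4 per kb, which was place 4, 2 and 2. At 24 h it was place 5 in KO1 (1.65), 4 in KO2 (2.40) and 2 in KI (49.2), where the median of Tgfbi (62.3) was higher. That order differed between the library sets. In 1, 3 and 5 Inhba was at 33.5 to 41.4 per kb and Tgfbi at 90.3 to 107, and in 2, 4 and 6 Inhba was at 57.1 to 74.7 and Tgfbi at 30.6 to 34.2.

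The genes most like each member were taken over the 18 group means of log2 CPM, centred within each cohort, among 5910 or 5911 other genes whose mean log2 CPM was 3 or more. The closest to Inhba were F10 (r = 0.986), Sipa1l1 (0.975) and Ier3 (0.972), and to Tgfbr1 Ttyh2 (0.984), Rgs10 (0.983) and F630028O10Rik (0.981). Gdf3 was closest to Ugt1a7c (0.941), Rnase4 (0.939) and Gas6 (0.934), and Tgfbi to Cd72 (0.885), Tubgcp5 (0.876) and Herc4 (0.857). Tgfbr2 was closest to Aldh16a1 (0.926), Pip4k2a (0.919) and Celf2 (0.911), and Tgfb1 to Nfya (0.922), Pik3c2a (0.91) and Zfp236 (0.902). Smad3 was closest to Ptgr2 (0.967), Ostm1 (0.965) and Arhgap27 (0.96), and Smad7 to Pcyt1a (0.968), Mbp (0.967) and Nf2 (0.967). Among the members, Inhba ran against Tgfbr1 (r = -0.871), Tgfbr2 (-0.865) and Smad7 (-0.886), and Gdf3 ran with Tgfbr1 (0.884). The 18 means share the 3 times, so these values describe shared time courses and carry no test.

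Another 92 genes of the pathway were followed as lists of other ligands, receptors, Smads, extracellular regulators, intracellular regulators and target genes. In WT at 6 h 19 of 56 tested rose and 10 fell in KO1 (25.7% and 31.1% of all genes), 26 and 11 of 45 in KO2 (32.5% and 38.3%), and 27 and 10 of 49 in KI (36.7% and 36.8%). Their median log2 change was 0.32, 0.47 and 0.53, against -0.09, -0.11 and 0.00 for all genes. The members' medians of -1.10, -1.43 and -1.96 stood on the other side of 0. At 24 h 8 rose and 17 of 56 fell in KO1 (21.3% and 20.6% of all genes), 14 and 16 of 45 in KO2 (29.6% and 29.7%) and 16 and 16 of 49 in KI (33.9% and 29.9%). Of the 29 other ligands, 4, 1 and 2 passed the filter on low counts.

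**Figure D4:**
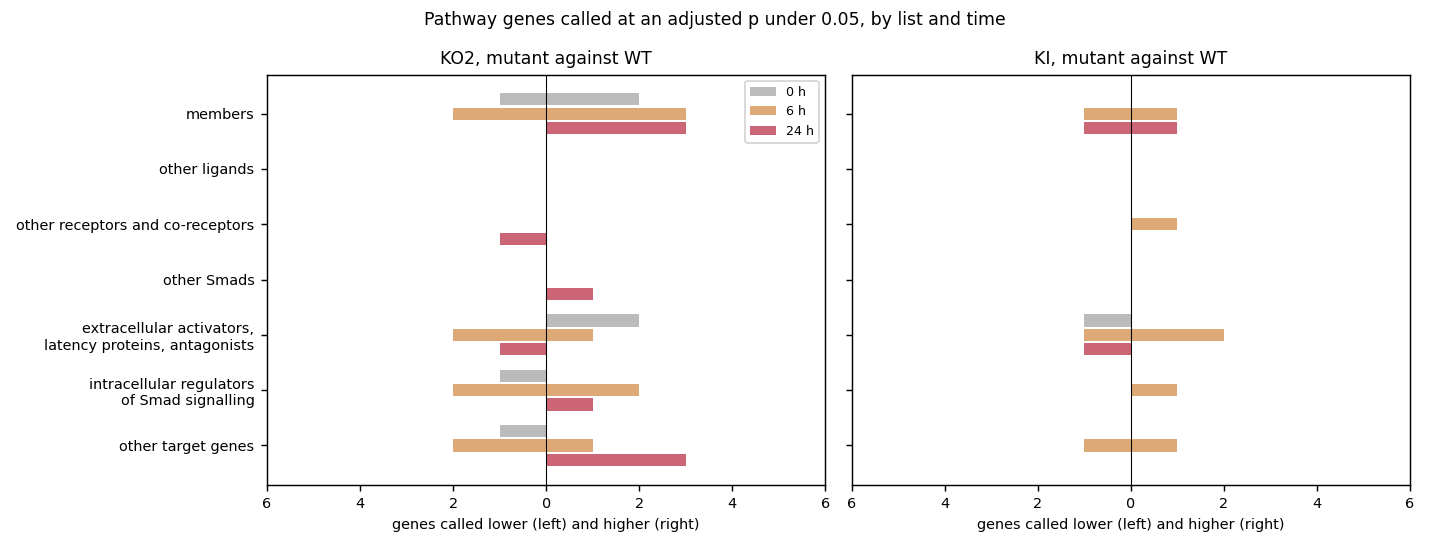
Number of the 9 members and of the genes of each other pathway list that were higher (to the right of 0) or lower (to the left) in the mutant at an adjusted p under 0.05 at 0 h, 6 h and 24 h, in KO2 (left panel) and KI (right panel). No bar is longer than 3 genes, and the other ligands have none.

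Among extracellular regulators, 5 genes rose and 2 fell at 6 h in all 3 cohorts. The share of all genes that moved 1 way in all 3 cohorts was not computed, so nothing is read from these counts. The 2 that fell were Lrrc33, which tethers latent TGF-beta on myeloid cells (-1.21, -0.41 and -1.58), and Ltbp3, which binds latent TGF-beta (-1.68, -1.37 and -1.12), named after their values were seen. Fst, the follistatin that binds activin, rose in WT from medians of 0 scaled CPM at rest to medians of 10.5, 5.74 and 5.91 in KO1, KO2 and KI, with adjusted p of 9.1e-06 or less and no fold given from so low a level. It was back to medians of 0.355, 0 and 0.192 at 24 h. The WT medians of Inhba at 24 h were 10.6 and 15.3 in KO1 and KO2, down from 39.9 and 63.1 at 6 h, and 315 in KI, up from 207. Itgb8, the integrin subunit that activates latent TGF-beta, rose by 6.62 ± 0.48, 6.36 ± 0.32 and 5.10 ± 0.60. These folds start from a low level, in KO2 WT a mean of 0.412 scaled CPM at rest. Furin, the protease that cleaves the ligand precursors, rose by 2.23, 3.77 and 3.35. Itgav, the partner of Itgb8, rose by 1.46, 0.42 and 1.26 at 6 h and fell below rest at 24 h (-1.80, -0.91 and -0.98).

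Among the other receptors, Acvr1, a type I receptor for activins and BMPs, rose at 6 h by 2.26 ± 0.20, 1.21 ± 0.22 and 1.49 ± 0.19. Acvrl1, a type I receptor for BMP9 and BMP10, rose at 24 h by 1.82 ± 0.30, 1.93 ± 0.14 and 2.55 ± 0.13. Among Smads, Smad2 rose at 6 h by 1.07, 0.88 and 0.38.

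Of the intracellular regulators, the Smad corepressors Skil (1.54, 1.25 and 1.09) and Tgif1 (1.36, 0.76 and 1.48) and the deubiquitinase Usp15 (1.80, 1.69 and 1.75) rose at 6 h in all cohorts. Usp15 was still up at 24 h (1.10, 0.96 and 0.33), and the ubiquitin ligase Nedd4l was down (-2.09, -1.78 and -0.85). Of the target genes 5 rose and 3 fell at 6 h in all cohorts, counts that likewise have no share over all genes beside them. Id2 rose by 2.34, 1.31 and 2.74 at 6 h and Itga1 by 2.97, 2.49 and 1.98, whereas Klf10, an early TGF-beta response gene, fell by 2.05, by 1.36 and by 3.49.

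Between genotypes of KO2, 2 of the 45 other genes were higher and 2 lower at 0 h (3.84% and 4.45% of all genes), 4 and 6 at 6 h (7.62% and 7.75%) and 5 and 2 at 24 h (6.26% and 5.06%). Their medians of -0.02, -0.03 and 0.14 stood beside 0.01, 0.02 and -0.02 for all genes. In KI 1 of 49 was lower at 0 h (0.574% of all genes), 5 were higher and 2 lower at 6 h (8.01% and 3.49%), and 1 was lower at 24 h (3.78%).

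In KO2 the transcriptional repressor gene Bhlhe40 was higher in KO at 6 h (41.5 ± 8.75 scaled CPM, SD, n = 8, against 19.5 ± 2.59, n = 8, log2 fold change 1.08 ± 0.13) and at 24 h (20.8 ± 3.19 against 8.98 ± 1.97, n = 8 and 7, 1.23 ± 0.14), without overlap at either time. Id3, a target of BMP signalling, was lower in KO at 0 h (-0.48 ± 0.10, adjusted p = 0.0011) and higher at 24 h (0.99 ± 0.12, adjusted p = 8.5e-09), and Id1 was lower at 6 h (-1.75 ± 0.30, adjusted p = 1.9e-05). Id2 was lower at 6 h (-0.33 ± 0.10, adjusted p = 0.017) and higher at 24 h (0.61 ± 0.10). Among Smad corepressors, Ski was lower at 6 h (-0.68 ± 0.14), and Tgif1 was higher at 6 h (0.40 ± 0.09) and 24 h (0.52 ± 0.10). Fkbp1a, which binds and restrains type I receptors, was lower at 0 h (-0.41 ± 0.09) and 6 h (-0.49 ± 0.10). Lrrc33 was lower at 6 h (-0.71 ± 0.11) and 24 h (-0.58 ± 0.11). Thbs1 was higher at 0 h (0.75 ± 0.17), and Acvrl1 was lower at 24 h (-0.50 ± 0.13, adjusted p = 0.0063). Itgb8 was called higher at 0 h (1.85 ± 0.47) from a low level, at 1.44 ± 1.09 scaled CPM in KO and 0.412 ± 0.518 in WT (SD, n = 8 each), with overlap.

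In KI at 6 h Fst was at 17.3 ± 4.48 scaled CPM in F121A and 6.17 ± 0.728 in WT (SD, n = 6 each), without overlap, a log2 fold change of 1.49 ± 0.25 (adjusted p = 4.3e-05 in edgeR) at the time when Inhba was lower. Furin (0.56 ± 0.12), Ski (0.56 ± 0.11) and Eng, a co-receptor (0.38 ± 0.12), were also higher, and Bhlhe40 was lower (-0.57 ± 0.13). At 0 h Cd109, a TGF-beta co-receptor that inhibits signalling, was lower (-1.16 ± 0.29, adjusted p = 0.014). At 24 h Itgb8 was called lower (-1.84 ± 0.43, adjusted p = 0.0042), with WT libraries 1, 3 and 5 at 7.33 to 10.3 scaled CPM and 2, 4 and 6 at 1.57 to 2.65, against 0.923 to 2.27 in F121A. It was -0.32 ± 0.51 without the first set (adjusted p = 0.9) and -2.50 ± 0.39 without the second (adjusted p = 7.8e-06).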

How the data were processed

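Smart-Seq2 libraries of mouse macrophages (polyadenylated RNA, no strand information and no molecular identifiers) were counted per gene. Per the submitters' processing notes, TopHat and HTSeq were used with the mm10 build; versions and the gene annotation are not given in the sources used here. The deposited values are raw read counts per gene symbol, per the labels and the whole-number values. All per-sample columns were mapped to a sample.

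The 3 libraries of each KO1 culture were summed, since the labels give them 1 number, called a culture here. Each cohort was fitted as 6 group means with edgeR 4.0.16 (R 4.3.3): filterByExpr by group, TMM factors, glmQLFit and glmQLFTest, with Benjamini-Hochberg adjustment over all genes tested (13693 in KO1, 10794 in KO2, 11500 in KI). Effects of different cohorts were compared in 1 fit of all 18 groups (13369 genes). Standard errors were taken as the log2 fold change divided by the square root of F. Alternatives used DESeq2 1.42.0, limma 3.58.1 was loaded, and tables and figures were made with Python 3.11.15, numpy 2.4.6, pandas 2.3.3, scipy 1.17.1 and matplotlib 3.10.9. Log2 CPM for similar patterns used a prior count of 2.

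The members and lists were chosen with earlier results of these data known. Named besides the 9 members are Becn1, Xist and Ddx3y as label checks, per list up to 4 genes called in the same direction in WT of all 3 cohorts, per genotype comparison up to 6 called list genes by adjusted p, and per member the 3 most similar genes; 1 list gene that this rule names is not reported here. Alternatives were another normalization, no filter, only the 2 groups compared, single or summed libraries, a replicate block, each replicate left out, and 2 samples with conflicting labels left out. Depth was 1448218 to 15627379 counts per library, and levels near 1 count are imprecise.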

Additional observations from a re-analysis of the deposited data

Results flagged for a closer look

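Of 108 combinations of a member and a group of 6 to 8 libraries, 7 held a library far from the others, where chance gives about 1 in 20. Gdf3 was 14 scaled CPM in replicate 6 of KO2 KO at 0 h, with the next at 9.03. Inhba was 133 in replicate 5 of KI WT at 6 h (next 190.5) and 72.9 in replicate 4 of KO2 KO at 24 h (next 115). Smad3 was 3.17 in replicate 6 of KI WT at 24 h (next 1.88), and Tgfb1 was 0.779 in replicate 4 of KI F121A at 24 h (next 1.41). Tgfbr1 was 11 in replicate 4 of KO2 WT at 6 h (next 18.3), and Tgfbr2 was 16.8 in replicate 1 of KI F121A at 6 h (next 12.6).

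The genotype effect (log2) changed with time by edgeR's test, adjusted over all genes, in 6 cases. In KO2 it changed from 0 h to 6 h by 1.59 for Inhba (adjusted p = 0.0019) and 0.65 for Tgfbr1 (0.031), and from 0 h to 24 h by 3.18 for Inhba (1.2e-09), 2.69 for Gdf15 (9.9e-09) and 0.87 for Tgfbi (1.9e-05). In KI it changed from 0 h to 6 h by 0.59 for Tgfbr2 (0.049), a call lost with any 1 replicate number left out.

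The KO2 effect minus the KI effect was -1.90 for Gdf3 at 0 h (adjusted p = 9e-09), and at 6 h 2.16 for Inhba (2.4e-07), -1.22 for Gdf3 (0.0041) and 1.77 for Gdf15 (0.0073). At 24 h it was 3.27 for Inhba (4.2e-13), -1.51 for Gdf3 (0.0031), 4.30 for Gdf15 (3.3e-13), -0.82 for Tgfbr2 (0.0087) and 1.28 for Tgfbi (0.032), the last not called without KI WT libraries 1, 3 and 5 of 24 h (0.24, adjusted p = 0.89). The KO2 effect minus the KO1 effect was -2.64 for Gdf3 at 0 h (5.9e-09), and -1.91 for Gdf3 at 6 h (0.016). For Gdf15 at 24 h the joint fit gave 3.26 (0.0079), but Gdf15 did not pass the filter of KO1, where it had 15 and 20 counts in the WT and KO groups, and no difference is read from it.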

How the results depend on the processing

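Over all alternatives, 1117 genotype values of members kept their direction and side of the threshold, 18 became called, 24 lost the call and 1 reversed; the counts were 1106, 30, 49 and 5 for WT times, 712, 10, 17 and 0 for genotype by time, and 230, 2, 2 and 0 between cohorts. Total counts, F121A 0 h replicate 5 left out and the KI WT 24 h sets left out were chosen after seeing the data. Libraries of F121A at 0 h correlated at r down to 0.914, and their TMM factors ran from 1.18 to 1.94. Without replicate 5 of that group, Tgfbr2 was called in KI genotype at 24 h (0.38, edgeR adjusted p = 0.046). Its KI genotype by time call at 6 h was lost (0.52, adjusted p = 0.12), and no other member call within KI changed. Causes were not tested.

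Reversed were Tgfbr2 in KO1 WT at 6 h (-0.89) and Gdf15 in KI WT from 0 h to 24 h (-0.14) with total counts. Without KI WT 24 h libraries 1, 3 and 5, Gdf15 reversed against 0 h (-0.13) and 6 h (-0.12), as did Tgfbi between genotypes (0.35), and without 2, 4 and 6 Tgfbi from 6 h to 24 h (0.40).

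Members called moved as follows. KO1 genotype went from 0 to 1 with single libraries at 0 h, 6 h and 24 h, with no filter at 6 h and 24 h and with only the 2 groups at 24 h. KI genotype at 6 h went from 2 to 1 when summed, unfiltered, with only the 2 groups or with total counts, and at 24 h to 0 with only the 2 groups. KO1 WT at 6 h had 3 with DESeq2 and 8 with total counts, and WT from 6 h to 24 h with only the 2 groups had 4 in KO2 and 5 in KI. KO1 genotype by time had 1 unfiltered at both times and 1 with single libraries at 24 h. KO2 genotype by time at 6 h had 1 when summed or with total counts. KI genotype by time at 6 h had 0 when summed, unfiltered, with total counts, without F121A 0 h replicate 5 or without WT 24 h libraries 1, 3 and 5. At 24 h it had 1 with DESeq2, summed, unfiltered, or without 1, 3 and 5, and 2 without 2, 4 and 6. KO2 minus KO1 at 6 h had 2 unfiltered and 0 with total counts.

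The labels do not say that a replicate number marks a shared animal or batch, and r of same-numbered samples was -0.161 to 0.322 (KO1), -0.181 to 0.275 (KO2) and -0.143 to 0.16 (KI). It was above 0.1 in every pair only between KO1 KO at 24 h and 6 h (0.132 to 0.269). In KO1 all 3 cultures matched their own number best between KO at 24 h and 6 h and between WT at 0 h and 6 h, and in no comparison of KO2 or KI did all libraries. With the replicate block Tgfbi in KO1 WT was called at 6 h against 0 h (-1.61 ± 0.35, adjusted p = 0.00069) and from 6 h to 24 h (1.41 ± 0.35, adjusted p = 0.0023), KO2 genotype at 24 h had 5 members called, with Gdf3 (-0.80, adjusted p = 0.05) and Tgfbr2 (-0.44, 0.037) added, and KI genotype by time at 24 h had 1 (Tgfbr2, 0.51, 0.042). Under the block Tgfbr2 was also called in KI genotype at 24 h (0.37, 0.038) and Smad7 in KO1 WT from 0 h to 24 h (-1.19, 0.047), and Smad3 in KO2 genotype at 0 h was not (0.81, 0.052). The block changed no other call among the comparisons fitted with it. The KO1 genotype comparisons were not fitted with it, since each culture number belongs to 1 genotype.

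With 1 replicate left out, members called ranged over 0 to 0, 0 to 0 and 0 to 1 in KO1 genotype (0 h, 6 h, 24 h), 2 to 3, 5 to 5 and 3 to 4 in KO2, and 0 to 0, 1 to 2 and 1 to 3 in KI. In WT at 6 h, 24 h and from 6 h to 24 h they ranged over 3 to 5, 3 to 5 and 3 to 6 in KO1, 8 to 9, 7 to 8 and 6 to 7 in KO2, and 7 to 7, 6 to 9 and 6 to 8 in KI. For genotype by time at 6 h and 24 h they were 0 to 0 and 0 to 0 in KO1, 1 to 2 and 3 to 3 in KO2, and 0 to 0 and 0 to 0 in KI.

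Among the calls over all genes that moved by over 1.5 times, KI genotype at 24 h had 828 against 203 without 1, 3 and 5 and 1481 without 2, 4 and 6. KO1 genotype at 0 h, 6 h and 24 h had 3, 3 and 1 against 273, 85 and 196 with single libraries and 154, 72 and 86 unfiltered, and KO1 WT from 0 h to 24 h had 5743 against 9792 with total counts. With total counts the share of calls that were higher moved from 46.3% to 85.9% in KO2 genotype at 0 h and from 49.6% to 86.7% at 6 h. Genes below about 1 scaled CPM, such as Smad7 and Smad3 at 6 h, are limited by depth.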
